A study of Rattus norvegicus with 88 samples.

Results

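The miRNAs rno-miR-103, rno-miR-107, rno-miR-33 and rno-miR-378 were followed in rat liver over the life span. They were chosen by name for their known roles in lipid and insulin handling and are 4 of the 677 rat miRNAs carried by the array and 4 of the 314 that gave a signal on at least 1 array. Each of the 4 was detected on 88 of 88 arrays. Whole liver was taken from untreated Fischer 344 (F344) rats, an inbred strain, at 9 ages from 2 to 104 weeks. RNA of 1 animal was hybridised to each one-colour Agilent array, with 45 females and 43 males and 5 animals per age and sex except for 4 males at 5 weeks and 4 males at 104 weeks. Rats of 2 weeks were classed as young. Those of 5, 6, 8, 15 and 21 weeks were classed as adult, and old rats were those of 52, 78 and 104 weeks. Because whole tissue was measured, a lower share of a cell type and less of a miRNA per cell cannot be told apart.

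A miRNA is a short RNA that lowers the output of messenger RNAs carrying a match to its seed, which is bases 2 to 8 counted from the 5′ end. The pair miR-103 and miR-107 is known for acting on insulin sensitivity in liver and fat, through targets that include caveolin. In liver, miR-33 acts with the sterol-sensing factor of its host gene and lowers the cholesterol exporter Abca1, and miR-378 lies in the gene of the energy coactivator Ppargc1b and is known for acting on fatty acid and glucose use.

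The mature sequences are shown because the seeds set which of the 4 could act on the same messages, and because rno-miR-103 and rno-miR-107 are so alike that a probe has to tell them apart near the 3′ end. They are from RefSeq (GRCr8), written 5′ to 3′, with the seed in capitals.
rno-miR-103: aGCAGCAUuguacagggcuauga
rno-miR-107: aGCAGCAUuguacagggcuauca
rno-miR-33: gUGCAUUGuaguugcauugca
rno-miR-378: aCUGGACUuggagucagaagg
The first pair shared the seed GCAGCAU, which no other mature miRNA of the RefSeq table had. Over 23 bases they differed at 1, the substitution G22C, which gives the base of rno-miR-103, its position counted from the 5′ end, and the base of rno-miR-107. The seeds UGCAUUG of rno-miR-33 and CUGGACU of rno-miR-378 were found in no other entry of the table, which held no mature rno-miR-378b. A limit applies to the last name: the array files used rno-miR-378 on 71 arrays and rno-miR-378b on the 17 arrays read with a later version of the design file, for the same probes, and the sequence printed is that of rno-miR-378a-3p. Values are therefore those of the rno-miR-378 probes, which were not told apart from rno-miR-378b.

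The host genes act in lipid and energy metabolism. In RefSeq the rat has a rno-miR-107 hairpin within Pank1 and rno-miR-103 hairpins within Pank2 and Pank3. The Pank genes encode pantothenate kinases, which begin the synthesis of coenzyme A, the carrier of acyl groups. Mir33 lies within Srebf2, which encodes the master activator of cholesterol synthesis, and Mir378 lies within Ppargc1b on chromosome 18. Each of these hairpins is on the strand of its host. Mir378b lies within Ncoa2 on chromosome 5. The table used here does not say whether the hairpins are intronic. The hairpins held by the table are shown with the measured mature strand in capitals, to show that rno-miR-103 can come from either of 2 precursors that differ outside it.
Mir107, chr1:241750418-241750504, minus strand: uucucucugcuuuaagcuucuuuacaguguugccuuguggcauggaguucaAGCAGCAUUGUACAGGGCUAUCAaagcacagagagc
Mir103a2, chr3:138963227-138963312, plus strand: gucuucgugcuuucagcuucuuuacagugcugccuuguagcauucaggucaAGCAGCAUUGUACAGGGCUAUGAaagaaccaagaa
Mir103a1, chr10:20748474-20748559, plus strand: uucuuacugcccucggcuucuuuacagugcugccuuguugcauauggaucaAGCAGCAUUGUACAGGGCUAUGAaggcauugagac
Mir33, chr7:115593952-115594020, plus strand: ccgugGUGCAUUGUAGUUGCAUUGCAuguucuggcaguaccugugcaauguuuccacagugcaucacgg

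The total gene signal of a miRNA, a single value that Feature Extraction forms from its 20 spots, was divided by the 75th percentile of the 314 expressed miRNAs on its array, and this normalized intensity was taken to log2. That percentile ran from 28.1 to 289 intensity units, with medians of 48.8 to 144.8 over the 4 scans (sessions of the array scanner, numbered 2 to 5) that held 13, 30, 28 and 16 arrays, and no target spot was saturated. The raw signal of rno-miR-33 was 4.06 to 116 units, against a lowest measured signal of 1.84, so it lay nearest to the detection limit and its replicates spread most. The coefficient of variation within a group was 16.6% to 56.6% for rno-miR-33 and 3.44% to 20.3% for rno-miR-103. The hepatocyte miRNAs rno-miR-122, rno-miR-192 and rno-miR-194 were detected on all 88 arrays. The figure of the 4 miRNAs by age gives every array.

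**Figure D1:**
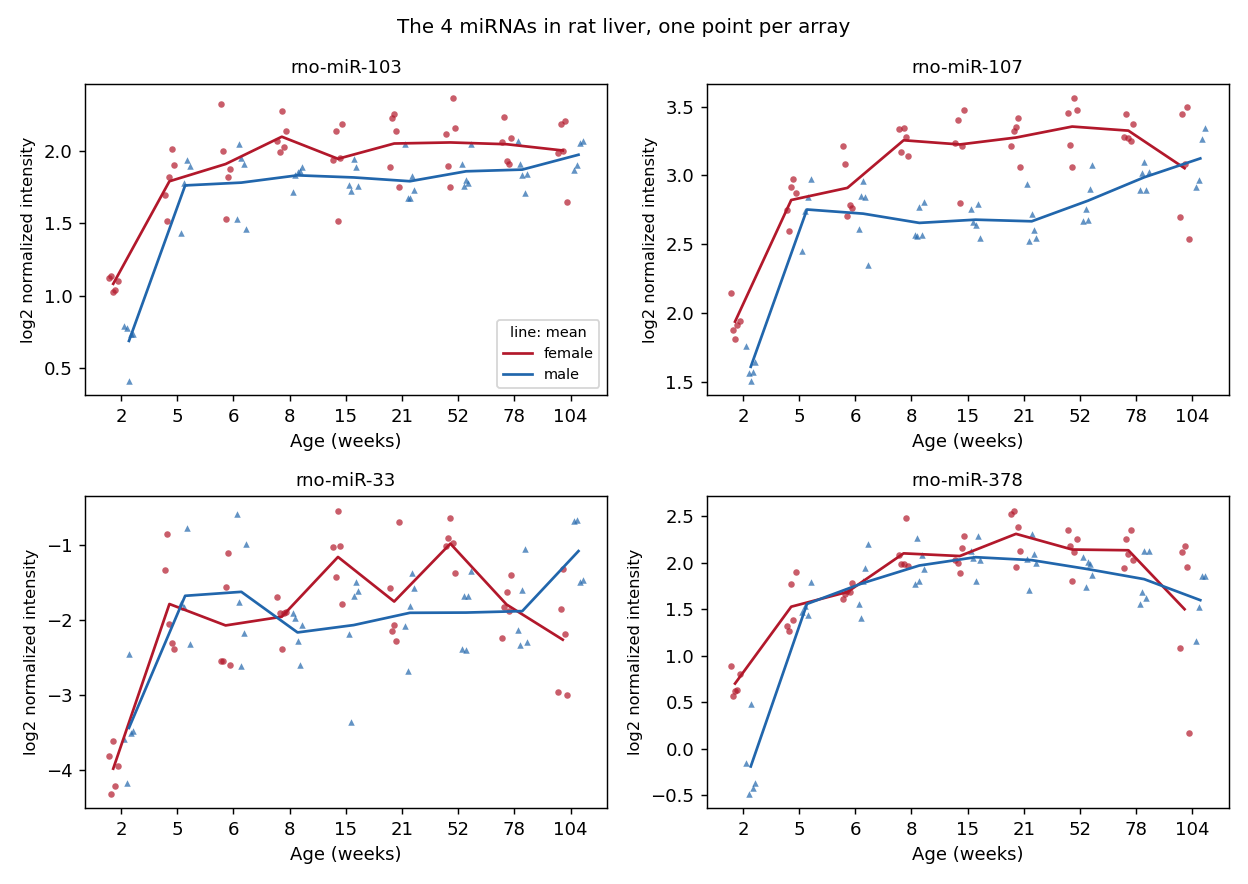
Normalized intensity of the 4 miRNAs (y axis, log2) at the 9 ages (x axis, weeks, evenly spaced), with 1 point per array and lines through the group means, in red circles for females and blue triangles for males. All 4 were lowest at 2 weeks, rno-miR-107 was lower in males from 8 to 52 weeks, with the sexes apart at 8, 15 and 21 weeks and an overlap of 1 male at 52 weeks, and rno-miR-33 had the widest spread.

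All 4 miRNAs were lower at 2 weeks than at every later age in both sexes, relative to the 75th percentile of the 314. For rno-miR-103, for rno-miR-107 and for rno-miR-33 in males this depended on that scaling, as given below. The question here was how each changed over the life span within a sex. The limma F test over the 9 ages, with at least 1 of the 36 pairs of ages past an adjusted p of 0.05 and 1.5-fold, called 4 of 4 in females and 4 of 4 in males, beside 57.3% and 54.1% of all 314 expressed miRNAs. The pairs that included 2 weeks were called 8 of 8 times for each miRNA in each sex. Among the 28 pairs of later ages, 0 were called for rno-miR-103 and rno-miR-107 in either sex, 3 for rno-miR-33 and 5 for rno-miR-378 in females, and 0 for all 4 in males. In females rno-miR-33 was higher at 52 than at 6 weeks, by 1.09 (log2, adjusted p = 0.011). It was lower at 104 weeks than at 15 and 52 weeks, by -1.10 and -1.28 (adjusted p of 0.037 and 0.027). The female counts over all 36 pairs, 11 for rno-miR-33 and 13 for rno-miR-378, depended on single arrays. They ran from 10 to 14 for rno-miR-33, highest without female 6 at 21 weeks, and from 11 to 17 for rno-miR-378, highest without female 2 or 5 at 104 weeks.

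From young to adult, 4 of 4 rose in females and 4 of 4 in males, beside 22.9% and 29.9% of all expressed miRNAs that were called higher in adults. This has to be read against the scaling. Among the 103 miRNAs detected on every array, the median also rose by 0.52 in females and by 0.99 in males on the log2 scale, and 47 and 71 of these 103 were called higher. Relative to that median, rno-miR-103 rose by 0.36 in females and 0.12 in males, and rno-miR-107 by 0.64 and 0.10. The excess over the median was larger for rno-miR-33, at 1.72 in females and 0.56 in males, and for rno-miR-378, at 0.72 and 1.10. In males the rises of rno-miR-103 and rno-miR-107 thus lay near that of the other always detected miRNAs, ranking 43 and 44 of 103, and under quantile normalization rno-miR-107 was 0.25 below their median. With the 75th percentile taken over the 103 miRNAs, the male differences turned to -0.0063 and -0.031, with adjusted p of 1.0 and 0.908. Under that scaling the female differences kept their sign, at 0.22 and 0.51, and fell short of 1.5-fold, and 3 of the members' 8 young-to-adult differences were called, rno-miR-33 in females and rno-miR-378 in both sexes. Of the pairs of ages, 0 were then called for rno-miR-103 in either sex, and for rno-miR-107 0 in females and 2 in males.

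**Figure D2:**
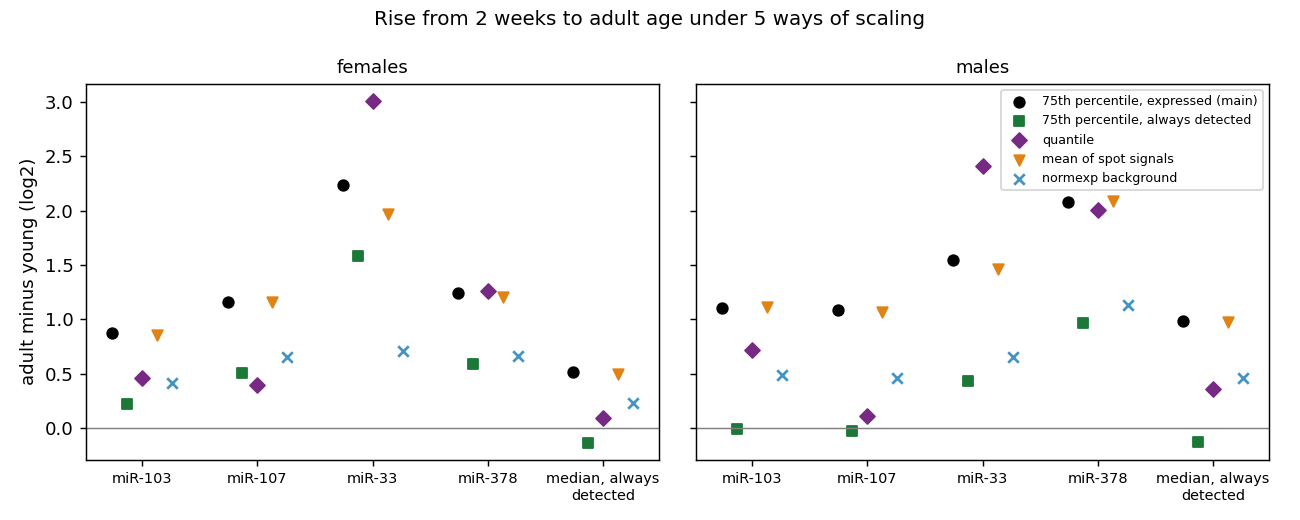
Difference from 2 weeks to adult age (y axis, log2) for the 4 miRNAs and for the median of the 103 miRNAs detected on every array, in females (left) and males (right), with a symbol for each of 5 ways of scaling or background correction. In males rno-miR-103 and rno-miR-107 lay close to the median, between -0.25 and 0.36 from it, and rno-miR-378 lay above it under every one of the 5.

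The rise of rno-miR-378 was called in both sexes under each of the 15 other settings tried. At 2 weeks its normalized intensity was 1.85, 1.48, 1.53, 1.55 and 1.74 in females and 0.896, 0.712, 1.40, 0.746 and 0.773 in males. It was 2.41 to 5.90 in the 25 adult females, with a median of 3.89, and 2.65 to 4.95 in the 24 adult males, with a median of 3.82. No adult array overlapped a 2-week array of its sex. In males it rose 4.24-fold (2.08 ± 0.14 SE on the log2 scale, adjusted p = 4.36e-17) and in females 2.36-fold (1.24 ± 0.21, adjusted p = 1.91e-06). The hepatocyte miRNAs rose with it. Their summed intensity had a median of 653 in young and 1024 in adult females, and of 418 and 970 in males. In females most of it was rno-miR-122, at medians of 620 and 951. The rise of rno-miR-122 was called in both sexes, at 0.61 in females and 1.19 in males (log2, 1.52-fold and 2.27-fold). That of the median of the 103 always detected miRNAs was 0.52 and 0.99. Other marker lists, described further on, also moved. Leukocyte sums were 3.73 to 5.16 in young and 5.63 to 13.5 in adult females, and 2.93 to 5.60 and 6.85 to 12.9 in males. Median biliary sums went from 3.94 to 1.91 in females and 2.89 to 2.83 in males. The part of these cell types in the rise of rno-miR-378 was not tested. Over the 15 settings the male difference of rno-miR-378 was 0.97 to 3.28 and the female difference 0.59 to 2.01. Its hairpin's other arm, rno-miR-378*, moved the same way, 8.09-fold in males and 2.95-fold in females. It was not detected on 1 of the 88 arrays, a 2-week male, where it was set to the lowest normalized value of 0.012, and without that array the male rise was 2.27 in place of 3.02 on the log2 scale. The other arms of the rno-miR-107 and rno-miR-103 hairpins, rno-miR-107*, rno-miR-103-1* and rno-miR-103-2*, were detected on 0 of the 88 arrays.

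The change of rno-miR-378 with age differed between the sexes, since the males began lower. At 2 weeks 5 of 5 males lay below 5 of 5 females, with a male minus female difference of -0.89 ± 0.19 (SE, log2, adjusted p = 1.24e-04), where 7.64% of all expressed miRNAs were called higher in females. The summed hepatocyte miRNAs moved with it, at 560 to 674 in the females and 399 to 429 in the males, and rno-miR-122 differed by -0.63. Their part in the difference of rno-miR-378 was not tested. The median of the 103 always detected miRNAs was itself lower in males at this age, by -0.36, and relative to it rno-miR-378 differed by -0.53. With the percentile over those 103, the difference was -0.50 and under 1.5-fold, with an adjusted p of 0.019. The sex by age-class interaction (male change minus female change from young to adult) was 0.85 ± 0.25 (SE, log2, adjusted p = 8.02e-03), and that of rno-miR-378* was 1.45 ± 0.35 (adjusted p = 7.96e-04). The latter was 0.71 (adjusted p = 0.036) without the 2-week male 3, in which rno-miR-378* was not detected. The interaction was called for 1 of the 4 members, a share near the 27.1% of all expressed miRNAs. With the percentile over the 103 miRNAs that of rno-miR-378 was 0.38, with an adjusted p of 0.153. Under that scaling rno-miR-107 was called instead, at -0.54 (adjusted p = 8.15e-05). Without the 16 arrays of scan 5 the interaction of rno-miR-378 was 0.74, with an adjusted p of 0.092. From 5 weeks on, rno-miR-378 differed between the sexes at 0 of 8 ages by limma, and at 0 of 8 with an unadjusted p under 0.05.

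In adult females rno-miR-378 was higher at 21 weeks than at 5 and 6 weeks. The group means were 2.93 ± 0.60 at 5 weeks, 3.22 ± 0.143 at 6 weeks, 4.33 ± 0.712 at 8 weeks, 4.22 ± 0.448 at 15 weeks and 5.02 ± 0.874 at 21 weeks (SD, n = 5 each). From 5 to 21 weeks the difference was 0.78 on the log2 scale (adjusted p = 6.80e-03), and from 6 to 21 weeks it was 0.62 (adjusted p = 0.042). From 21 to 104 weeks rno-miR-378 fell by 0.81 (adjusted p = 0.038). Of the 88 fits that each left out 1 array, these differences were called in 88, 80 and 82. At 104 weeks the females were 2.11, 4.33, 4.52, 3.88 and 1.13, so that 3 lay in the range of younger adults and 2 below it. These 2 are the females with high leukocyte and low hepatocyte sums described further on. Without them and 1 male of that age, the difference from 21 to 104 weeks was -0.23 (adjusted p = 0.931). The summed hepatocyte miRNAs moved with the earlier difference, with medians of 837, 817 and 1195 in females at 5, 6 and 21 weeks, and their part in it was not tested. In males the means ran from 2.95 at 5 weeks through 4.19 at 15 weeks to 3.08 at 104 weeks, and no pair of these ages was called.

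The steepest rise in females was that of rno-miR-33. Its normalized intensity at 2 weeks was 0.0501 to 0.0816 in 5 females, all below the 25 adult females, at 0.165 to 0.687. In males the 2-week values were 0.083, 0.0556, 0.183, 0.0877 and 0.090, and the highest of them lay within the adult range of 0.0972 to 0.666, in which the groups overlapped. The rise was 4.71-fold in females (2.24 ± 0.30 SE, log2, adjusted p = 2.07e-08) and 2.91-fold in males (1.54 ± 0.30, adjusted p = 1.64e-05). It ranked 3 of the 103 always detected miRNAs in females and 16 in males. The male rise, however, was 0.43, with an adjusted p of 0.331, when the percentile was taken over those 103. The difference in rise between the sexes was -0.69 ± 0.43 (SE, log2) and was not called (adjusted p = 0.286). Normexp, which models the background of each spot, gave 0.70 in females and 0.66 in males.

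From adult to old, 0 of 4 members were called in females and 0 of 4 in males by limma, beside 4.46% and 5.1% of all expressed miRNAs. Of these 8 differences, 1 had an unadjusted p under 0.05. That was rno-miR-107 in males, which was higher in the old by 0.27 ± 0.058 (SE, log2, adjusted p = 7.06e-04) and fell short of the threshold at 1.21-fold. The 14 old males were at 6.37 to 10.2, with a median of 7.69, and the 24 adult males at 5.08 to 7.85, with a median of 6.45. The male means were 6.38 ± 0.784 at 21 weeks, 7.08 ± 0.874 at 52 weeks, 7.93 ± 0.486 at 78 weeks (SD, n = 5 each) and 8.78 ± 1.29 at 104 weeks (n = 4). The summed leukocyte miRNAs were higher in the old as well, with medians of 9.01 in adult and 12.8 in old males and, by age, of 10.1 at 21 weeks, 14.0 at 78 weeks and 13.6 at 104 weeks, and their part in the difference was not tested. Without the 3 arrays of 104 weeks with high leukocyte sums it was 0.28 (adjusted p = 9.94e-04). Within scans 2, 3, 4 and 5 the old minus adult difference in males was 0.22, 0.31, 0.26 and 0.26. The remaining 7 differences were between -0.095 and 0.24. The interaction of sex and this change was called for 0 of 4 members by limma, with 0 unadjusted p under 0.05, beside 1.59% of all expressed miRNAs. With the percentile over the 103 miRNAs it was called for rno-miR-107 (0.31, adjusted p = 0.00495).

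The sexes were then compared at each age. Of the 36 differences of 4 miRNAs at 9 ages, the male was lower in 28, 8 had an adjusted p under 0.05, and 4 also reached 1.5-fold. The median of the 103 always detected miRNAs was itself -0.36 at 2 weeks and -0.13 at 8 weeks, and -0.070 to 0.022 at the other ages. The share of all expressed miRNAs called, by both thresholds, is given with each age. No such share is given for the direction or for the adjusted p alone. At 5 and 6 weeks, 0 of 4 members were called by limma and 0 had an unadjusted p under 0.05, where 0% and 0.637% of all expressed miRNAs were called. At 5 weeks the methods' t-test also called 0 miRNAs, with 5 of the 314 and 0 of the 4 members at an unadjusted p under 0.05, and limma gave 9 of the 314 at that level.

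Of the 4, rno-miR-107 had the most persistent sex difference. At 2 weeks the male minus female difference was -0.33 (adjusted p = 0.032), near the median of -0.36 of the always detected miRNAs, and it was 0.065 with the percentile over these. At 5 weeks the groups overlapped, with means of 7.10 ± 0.715 (SD, n = 5) and 6.79 ± 1.01 (n = 4), and by 8 weeks they no longer overlapped. At 8 weeks the females were 10.1, 8.98, 10.2, 9.73 and 8.82, and the males 5.92, 5.91, 6.81, 5.93 and 6.99. The male minus female difference was -0.60 ± 0.12 at 8 weeks (SE, log2, adjusted p = 1.03e-03) and -0.61 at 21 weeks (adjusted p = 3.21e-04), both past the thresholds by little. With 1 array left out, the 8-week difference was under 1.5-fold in 5 of 88 fits (without female 2 or 4 or male 1, 2 or 5 of that age) and the 21-week difference in 3 (without female 4 or male 3 or 6). The 8-week value was also under 1.5-fold with the percentile over the 103 always detected miRNAs (-0.57), under quantile normalization (-0.47) and without scan 5 (-0.58). The 21-week value was under it with quantile normalization (-0.41), with scan as a block (-0.57) and with slide as a random block (-0.58). In each of these fits the adjusted p was under 0.05. With the percentile over all 677 miRNAs the 21-week value was -0.27, with an adjusted p of 1.0. At 15 weeks it was -0.55 (adjusted p = 1.04e-03) and at 52 weeks -0.54 (adjusted p = 1.63e-03), where the folds of 1.46 and 1.45 fell just short. Other settings called these as well. The 15-week difference was called with the percentile over the 103 (-0.74), with normexp (-0.85), with mean spot signals (-0.59) and without female 4 of that age (-0.65). The 52-week difference was called with the replicate block (-0.70), without the arrays of the later design file or without scan 5 (-0.68 for both), without female 6 (-0.61) and without male 10 (-0.60), and with normexp it was -0.60 with an adjusted p of 0.117. For calls with the female higher, 4.46% and 3.5% of all expressed miRNAs passed at 8 and 21 weeks. At 15 and 52 weeks, where no member was called, 9.24% and 6.69% passed in either direction, and 6.05% and 4.14% with the female higher. The direction held under 14 of the 15 other settings and turned at 8, 15 and 52 weeks, to 0.79, 0.19 and 0.39, with the percentile over all 677 miRNAs, which on 36 arrays is the lowest signal. Every male lay below every female at 8, 15, 21 and 52 weeks, with 1 exception at 52 weeks, where the highest male, at 8.42, was above the lowest female, at 8.35.

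Later the sex difference of rno-miR-107 was smaller. At 78 weeks it was -0.34 (adjusted p = 0.080), where 3.82% of all expressed miRNAs were called in either direction and 2.55% with the female higher. At 104 weeks the difference was 0.071 (95% interval -0.19 to 0.33). Without the 3 arrays of this age with high leukocyte sums, described further on, it turned to -0.15 (95% interval -0.43 to 0.13, adjusted p = 0.956), and the 78-week difference, unchanged in size, had an adjusted p of 0.047. The females then were 6.5, 10.9, 8.46, 11.3 and 5.80 and the males 7.55, 7.83, 9.59 and 10.2, with full overlap. An F test of the sex difference over the 8 ages from 5 to 104 weeks, added after these values were seen, called rno-miR-107 (adjusted p = 0.015) and rno-miR-33 (adjusted p = 0.035), and neither rno-miR-103 nor rno-miR-378 (adjusted p of 1.0 and 0.986). It called 20 of the 314. Without those 3 arrays it called rno-miR-107 (adjusted p = 0.037) and not rno-miR-33 (adjusted p = 0.264), and 15 of the 314. Within scans 2, 3, 4 and 5, the male minus female difference of rno-miR-107 over 8 to 52 weeks was -0.72, -0.63, -0.51 and -0.40, and that of rno-miR-103 was -0.41, -0.33, -0.17 and -0.015. In scan 2 only 1 female array of these ages was present.

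**Figure D3:**
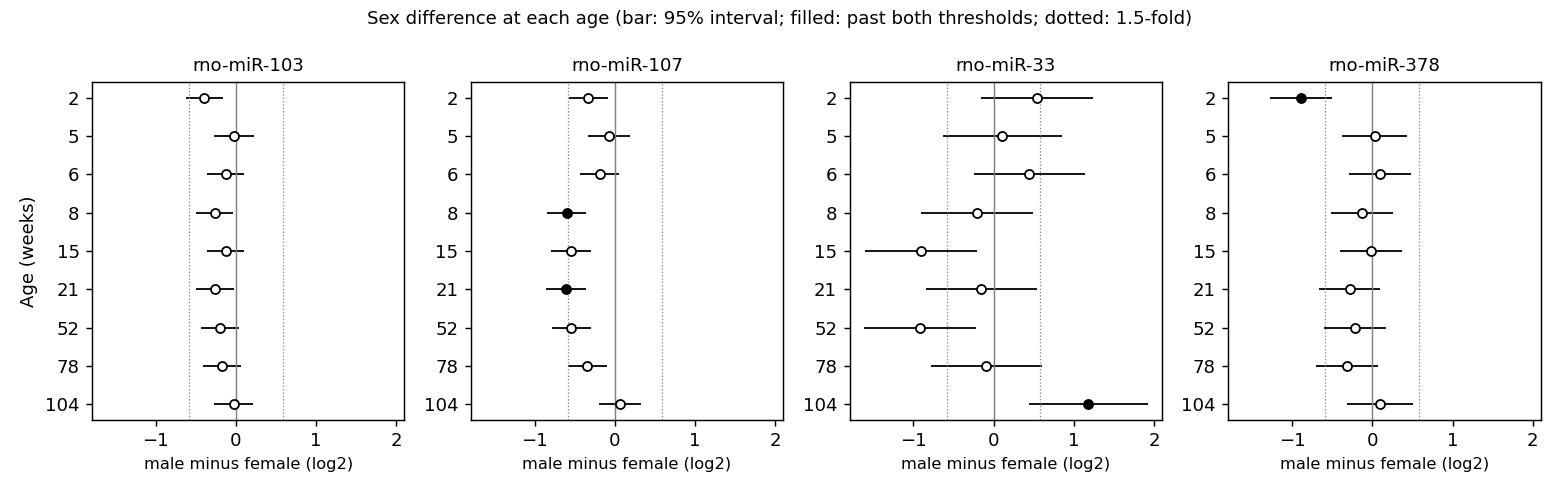
Male minus female difference (x axis, log2) at each age (y axis, weeks) for the 4 miRNAs, with the 95% interval of the limma fit as bars, filled points where both thresholds were passed and dotted lines at 1.5-fold. For rno-miR-107 the points from 8 to 52 weeks lie near the lower dotted line, and for rno-miR-33 the point at 104 weeks is filled and lies above 0, while those at 15 and 52 weeks lie below 0 and are not filled.

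The near-identical rno-miR-103 did not share this difference at the same size. Its male minus female difference was -0.39 at 2 weeks (adjusted p = 5.80e-03, 1.31-fold), close to the median of the 103 always detected miRNAs at that age, and -0.27 to -0.03 later, with no adjusted p under 0.05. To compare the pair free of the scaling, the log2 ratio of the rno-miR-107 signal to the rno-miR-103 signal was taken within each array. Its level reflects the probes as well as the RNA, so only its changes are read. Permutation tests (two-sided, exact for single ages) were adjusted over the 13 comparisons.

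The ratio separated the sexes from 8 to 52 weeks and not before. At 6 weeks the females were 0.89, 1.08, 1.18, 0.96 and 0.89 and the males 1.08, 0.80, 1.01, 0.93 and 0.89, in overlapping ranges. Within scans 3 and 4 the male minus female difference over 5 to 6 weeks was -0.13 and -0.073. At 15 weeks the females were 1.27 to 1.30 and the males 0.70 to 0.99. The male minus female difference was -0.33, -0.42, -0.35 and -0.34 at 8, 15, 21 and 52 weeks, each with an exact permutation p of 0.0079, the smallest that 5 against 5 arrays allow, and an adjusted p of 0.017. No male reached a female at any of these 4 ages. At 78 weeks it was -0.16 (exact permutation p = 0.040, adjusted p = 0.074), and at 2, 5, 6 and 104 weeks it was 0.065, -0.040, -0.059 and 0.10, with adjusted p of 0.516 or more.

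The ratio was then compared between age classes within each sex, and the difference between the sexes in these changes was not tested. In females it rose from young to adult by 0.29 (permutation test, adjusted p = 2.47e-03) and then by 0.070 from adult to old (adjusted p = 0.293), which became 0.13 (adjusted p = 0.015) without the 3 arrays at 104 weeks described further on. In males it moved by -0.024 from young to adult (adjusted p = 0.661) and rose by 0.17 from adult to old (permutation test, adjusted p = 0.00306). The mean of the male ratio was 0.824 ± 0.099 at 8 weeks, 0.958 ± 0.142 at 52 weeks, 1.12 ± 0.171 at 78 weeks (SD, n = 5 each) and 1.15 ± 0.113 at 104 weeks (n = 4). The females held 1.16 to 1.30 from 8 to 78 weeks and were at 1.05 ± 0.247 at 104 weeks. Within scans 2, 3, 4 and 5 the male minus female difference over 8 to 52 weeks was -0.32, -0.31, -0.34 and -0.39. At single ages, p-values permuted within scans, or within replicate numbers, kept the differences at 8, 15, 21 and 52 weeks negative and lost their calls. Such permutations allow fewer arrangements. Fewer arrays per age were left without the 16 arrays of scan 5, or without the 17 of the later design file, which include those 16. The 4 differences were then -0.31 to -0.43 with adjusted p of 0.052 to 0.062.

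**Figure D4:**
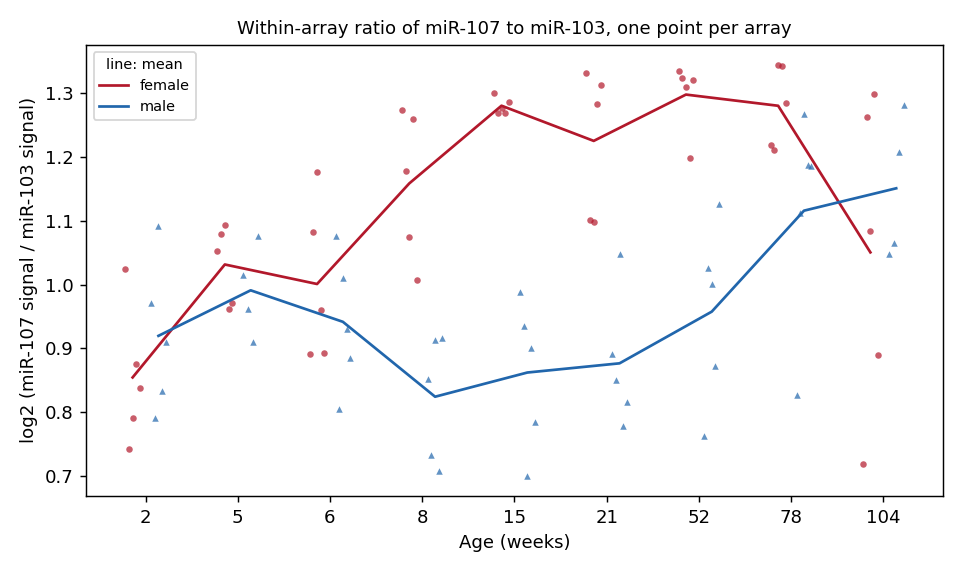
Log2 ratio of the rno-miR-107 signal to the rno-miR-103 signal within an array (y axis) at the 9 ages (x axis, weeks, evenly spaced), with 1 point per array and lines through the means, in red circles for females and blue triangles for males. The sexes overlap at 2, 5 and 6 weeks, are separate at 8, 15, 21 and 52 weeks and overlap again at 78 and 104 weeks.

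For the differences given here, the probes of a miRNA had the same sign, though not always the same size. Each of the 2 probes of rno-miR-107 was lower in males at 8, 15, 21 and 52 weeks, by -0.66, -0.45, -0.53 and -0.52 for the first and by -0.82, -0.67, -0.63 and -0.66 for the second (log2 of the processed spot signal, scaled as above). The 2 probes of rno-miR-103 were less alike at these ages. The first gave -0.44, -0.06, -0.26 and -0.24, and the second -0.14, -0.24, -0.03 and -0.14. For rno-miR-378 both probes rose by 2.15 from young to adult in males, and by 1.21 and 1.27 in females. The 3 probes of rno-miR-33 rose by 1.89, 1.90 and 2.08 in females and by 1.22, 1.63 and 1.62 in males. The first 2 of them had signals at or below 0 on 2 arrays and 1 array, which were left out of these means.

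At 104 weeks rno-miR-33 was higher in males. The males were 0.622, 0.629, 0.354 and 0.360 and the females 0.129, 0.278, 0.399, 0.219 and 0.125. The difference was 1.18 ± 0.37 (SE, log2, adjusted p = 0.0446), beside 4.14% of all expressed miRNAs called higher in males. At 15 and 52 weeks the differences were -0.91 and -0.92, with adjusted p of 0.069 and 0.082, and were not called. They turned to 0.11 at 15 weeks with normexp and to 0.0088 at 52 weeks with the percentile over all miRNAs, and of the 15 other settings 4 called the 15-week and 2 the 52-week difference. The other arm, rno-miR-33*, was detected on 21 of 88 arrays, among them 3 of 4 males and 0 of 5 females at 104 weeks, and gives no fold because of its dimness. The call at 104 weeks was not stable: it was lost in 5 of the 88 fits that each left out 1 array, where the adjusted p reached 0.210, and also under the percentile over always detected (adjusted p = 0.063) or over all miRNAs (0.845), quantile normalization (0.117), a floor set before scaling (0.051), mean spot signals (0.342), normexp (0.970), the replicate block (0.136) and the methods' t-test (0.512). Of the member differences the methods' t-test called 4, of which 3 were also called by limma, and the other was rno-miR-33 at 52 weeks (adjusted p = 0.043).

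Markers of other cell types moved with the values at 104 weeks. Of the 5 leukocyte miRNAs listed (rno-miR-142-3p, rno-miR-142-5p, rno-miR-150, rno-miR-155 and rno-miR-223), 4 were found under these names and were detected on all 88 arrays. Their summed normalized intensity was 2.93 to 5.60 on young, 5.63 to 13.5 on adult and 8.60 to 30.0 on old arrays. Females 1 and 8 at 104 weeks had 19.7 and 30.0, against 10.1 to 10.9 in the other 3, and male 2 had 22.7, against 12.1 to 14.2 in the other 3. Summed hepatocyte miRNAs were 691, 713 and 685 on these arrays, against 921 to 1234 on the other 6 arrays of this age.

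The same 2 females were the lowest of their group in rno-miR-107 (6.5 and 5.80), in rno-miR-378 (2.11 and 1.13) and in rno-miR-33 (0.129 and 0.125), and male 2 was the lowest of its group in rno-miR-107 (7.55) and rno-miR-378 (2.22) but not in rno-miR-33 (0.622). Without these 3 arrays, the sex difference at 104 weeks was 0.57 for rno-miR-33 (adjusted p = 0.801) and -0.15 for rno-miR-107 (adjusted p = 0.956), the adult to old difference of rno-miR-378 in females turned from -0.014 to 0.19 (adjusted p = 0.206), and the ratio of rno-miR-107 to rno-miR-103 rose by 0.13 from adult to old in females (permutation test, adjusted p = 0.015). The part of leukocytes in these values was not tested. At 8, 15, 21 and 52 weeks, where rno-miR-107 differed between the sexes, the leukocyte sums were at most 13.5 in females and 14.7 in males and overlapped between the sexes. Other lists did not overlap at some of these ages. The sums of the 2 erythroid miRNAs were 4.17 to 8.00 in females and 8.16 to 17.7 in males at 8 weeks, and 5.27 to 7.35 and 7.82 to 19.3 at 15 weeks. Those of the 5 biliary miRNAs were 1.63 to 2.07 in females and 2.80 to 3.73 in males at 8 weeks. At 52 weeks the pancreas sums were 0.487 to 0.894 in females and at most 0.257 in males, and the skeletal muscle sums 0.114 to 0.201 and at most 0.111. The part of these cell types in the sex difference of rno-miR-107 was not tested.

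**Figure D5:**
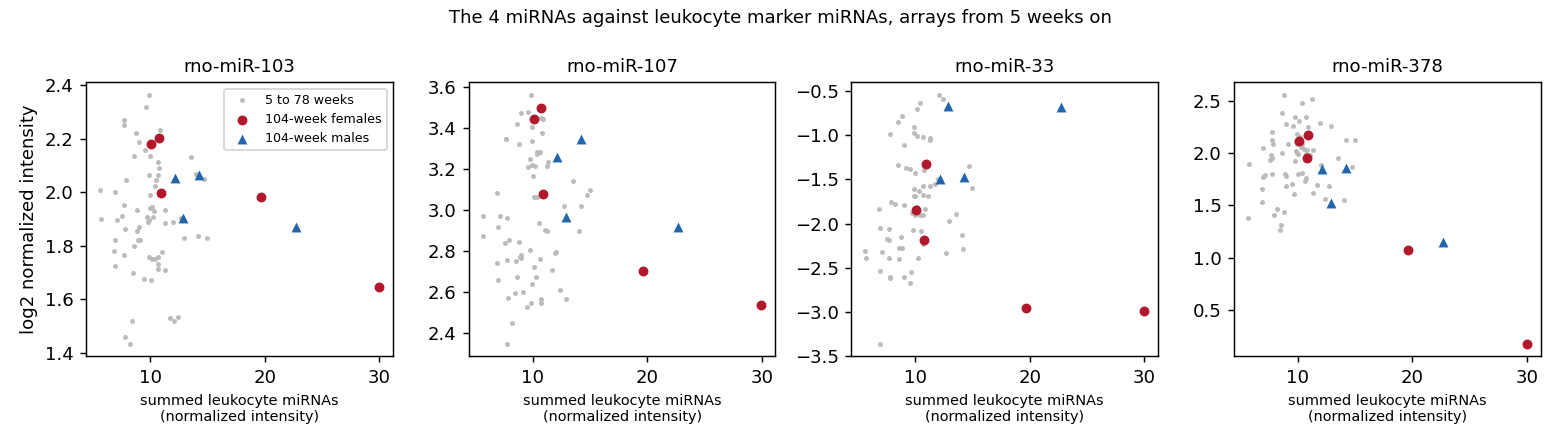
Normalized intensity of the 4 miRNAs (y axis, log2) against the summed normalized intensity of 4 leukocyte miRNAs (x axis), with 1 point per array from 5 weeks on. The 2 females at 104 weeks with leukocyte sums of 19.7 and 30.0 are the lowest of their group in rno-miR-107, rno-miR-33 and rno-miR-378.

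Of the remaining marker lists, the 5 skeletal muscle miRNAs were detected on 8 to 53 arrays each and summed to 0 to 65.6, highest on 1 adult male array. The 5 biliary miRNAs summed to 0.378 to 5.26, the 3 pancreas miRNAs to 0 to 2.71 and the 2 erythroid miRNAs to 3.18 to 28.0 over all arrays. In rno-miR-378, which muscle also expresses, the part of muscle was not tested.

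The 4 miRNAs were related to each other to different degrees from array to array. Over the arrays from 5 weeks on, 14 relations of log2 intensities were computed within a sex, with permutation p adjusted over them. The pair rno-miR-103 and rno-miR-107 had r = 0.82 (rho = 0.82) in 40 females and r = 0.71 (rho = 0.68) in 38 males, each with an adjusted p of 3.5e-05 for both measures, from the smallest p of 1e-05 that the permutations can give, and r of 0.79 and 0.63 without the 2 farthest arrays. Within scans of at least 6 arrays, r was 0.95 and 0.76 in females and 0.33 to 0.90 in males. All values of an array share its scaling. In females rno-miR-107 and rno-miR-378 had r = 0.75 (rho = 0.69), with an adjusted p of 3.5e-05, and r = 0.68 without the 2 farthest arrays. In males the same relation was r = -0.16 (rho = -0.18), with adjusted p of 0.454 and 0.396. For rno-miR-103 and rno-miR-378, r was 0.45 (rho = 0.39) in females, with adjusted p of 7.42e-03 and 0.030. In males it was -0.087 (rho = -0.16), with adjusted p of 0.607 and 0.411. The difference between the sexes was not tested for either relation. The 2 arms rno-miR-378 and rno-miR-378* had r = 0.87 (rho = 0.78) in females and 0.53 (rho = 0.62) in males, with adjusted p of 3.5e-05 and 2.04e-03 for r and 3.5e-05 and 2.52e-04 for rho, and r of 0.78 and 0.52 without the 2 farthest. For rno-miR-33 the relations to the other 3 had adjusted p for r of 0.057 or more.

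The miRNAs most like each member over the 18 group means, among those detected on every array, are given as a description, since 2 weeks against the rest sets much of the likeness. For rno-miR-103 they were rno-miR-186 (r = 0.98), rno-miR-107 (0.96) and rno-miR-497 (0.95). For rno-miR-107 they were rno-miR-103, rno-miR-148b-3p (0.94) and rno-miR-186 (0.94). Those of rno-miR-378 were both arms of the hepatocyte miRNA, rno-miR-122* (0.98) and rno-miR-122 (0.97), with rno-miR-140* (0.97) between them. For rno-miR-33 they were rno-miR-347 (0.89), rno-miR-101a (0.86) and rno-miR-101b (0.85). Over the 16 groups without 2 weeks, r was 0.93 for the pair rno-miR-103 and rno-miR-107, 0.92 for rno-miR-378 and rno-miR-122*, and 0.57 to 0.67 for rno-miR-33 and its 3.

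A list of 16 other miRNAs known for acting on lipids, glucose or insulin in liver was set beside the 4. All 16 were expressed. From young to adult 8 rose and 0 fell in females, with a median of 0.56 (log2), and 12 rose and 1 fell in males, with a median of 1.11, where 22.9% and 29.9% of all expressed miRNAs rose and the medians over all of them were 0.13 and 0.13. Of the 16, 12 were detected on every array, and of these 7 rose in females and 11 in males, with medians of 0.67 and 1.15. Among the 103 always detected miRNAs, 45.6% and 68.9% rose, with medians of 0.52 and 0.99. The 1 that fell was rno-miR-370, which was detected on 3 of 5 young and 0 of 24 adult males. The largest were rno-miR-802, which acts on glucose handling, at 2.97 in females and 2.76 in males, with 1 of 5 young arrays of each sex not detected, and the rno-miR-29 family, which lowers collagen and insulin signalling messages, at 2.05 to 2.59 in females and 2.67 to 3.15 in males. From adult to old, where none of the 4 members was called, 4 rose in females and 5 in males, beside 4.46% and 5.1% of all expressed miRNAs called in either direction. Among these were rno-miR-34a, which lowers the deacetylase Sirt1, at 0.94 and 1.64, rno-miR-29b at 1.47 and 1.38, rno-miR-29a at 0.85 and 0.80 and rno-miR-29c at 0.72 and 0.71. Between the sexes, rno-miR-29b was called higher in females at 5 ages, from -0.62 at 2 weeks to -1.30 at 52 weeks, and rno-miR-34a higher in males at 52 and 78 weeks, by 0.82 and 0.90.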

How the data were processed

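Arrays (Agilent rat miRNA, 1 animal each) were labelled from total RNA of whole liver. Per the authors' methods, Feature Extraction formed 1 value per miRNA, the total gene signal, from its 20 spots. The deposited scanner files hold these values as linear intensity, with 0.1 where a miRNA was not detected, and the deposited normalized table holds the ratio of that signal to the array's 75th percentile.

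From the scanner files, the signal was divided by the 75th percentile of the 314 expressed miRNAs (rank 236, undetected set to 1.84 for the ranking), undetected values were then set to 0.012, the lowest normalized value, and log2 was taken. This ratio equals the deposited table for the members. Precision is limited by the number of arrays, 4 or 5 per age and sex. The arrays are separate animals, named by the replicate number of their label.

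Groups were compared with limma 3.58.1 in R 4.3.3 (lmFit, eBayes), fitted over all 314 miRNAs. A call needed a Benjamini-Hochberg adjusted p under 0.05 and at least 1.5-fold (interactions: the adjusted p alone). Age was fitted within each sex by 9 ages and by 3 classes, sex by 18 groups of age and sex, and the interaction by 6 groups of sex and class. The log2 ratio of 2 miRNAs was tested by permutation, two-sided, exact for up to 10 arrays and otherwise with 100000 permutations. The fits were tested on simulated data.

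Scan times in the files gave 5 scans, of which 1 held 1 array. The study processed its samples in batches on separate days, and the labels do not say which array belongs to which day, so that scans were used only as scans. Over the 4 larger scans, each group of age and sex lay in 3 or 4, except the 8-week females, in 2. The median and not the mean spot signal was used for normexp, since the files hold no mean signal. Alternatives covered the scaling, background, filter, scan, slide, replicate number, test and samples left out.

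The members, the other miRNA lists and the added tests were chosen with earlier results of these data known. Named miRNAs were the 4 members and their partner arms, the 4 of the metabolic list with the largest called difference in a comparison, the 3 most like each member, and markers beside a member's value. Leukocyte miRNA rno-miR-155 was not found under that name.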

Additional observations from a re-analysis of the deposited data

Results flagged for a closer look

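Among 108 groups of 4 or 5 arrays, 6 held a value that stood apart from the rest by Dixon's test, and chance gives about 1 in 20. At 2 weeks 1 male was at 1.328 for rno-miR-103, where the other 4 were at 1.66 to 1.73. At 8 weeks 1 female was at 5.577 for rno-miR-378, above the other 4 at 3.89 to 4.25. For rno-miR-378*, 1 male at 2 weeks was not detected and stood at the set value of 0.01202, 1 at 6 weeks was at 0.4291 and 1 at 8 weeks at 0.5928, each the lowest of its group. The log2 ratio of rno-miR-107 to rno-miR-103 was 1.199 in 1 female at 52 weeks, the lowest of 5.

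The rise from young to adult differed between the sexes for rno-miR-378, by 0.8454, and for rno-miR-378*, by 1.454 (male minus female, log2), where 27.1% of all expressed miRNAs were called. The former was 0.38 (adjusted p = 0.153) with the percentile over the 103 always detected miRNAs and 0.74 (adjusted p = 0.092) without scan 5, and the latter 0.71 (adjusted p = 0.036) without the 1 male at 2 weeks in which it was not detected. Over 5 to 104 weeks the sex difference varied with age for rno-miR-107 (limma F test, adjusted p = 0.01493), rno-miR-33 (adjusted p = 0.03525) and rno-miR-33* (adjusted p = 0.02258). The last was detected on 21 of 88 arrays. Without the 3 arrays at 104 weeks with high leukocyte sums the adjusted p were 0.037, 0.264 and 0.117.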

How the results depend on the processing

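The scaling and the background correction both moved the members' values. With normexp, the female adult minus young value of rno-miR-33 went from 2.24 to 0.70. Its sex difference at 104 weeks went from 1.18 to 0.18. With the 75th percentile over the 103 always detected miRNAs, 4 of the members' age tests were called in place of 8 and 3 class differences in place of 8. The adult minus young values were then 0.22 in females and -0.0063 in males for rno-miR-103, 0.51 and -0.031 for rno-miR-107, and 0.43 in males for rno-miR-33. The female old minus adult values were -0.10, -0.031 and -0.11 for rno-miR-103, rno-miR-107 and rno-miR-33. The 2-week sex difference of rno-miR-107 was 0.065. The interactions (2 called) were -0.23 for rno-miR-103, -0.54 and 0.31 for rno-miR-107, and 0.38 and 0.10 for rno-miR-378. With the percentile over all miRNAs, 2 sex differences and 0 interactions were called. The rno-miR-107 sex differences at 8, 15 and 52 weeks were 0.79, 0.19 and 0.39 and its interactions 0.35 and -0.0034, rno-miR-378 was 0.064 (female old minus adult) and 1.27 (interaction), and the old minus adult interaction of rno-miR-103 was -0.11. Quantile normalization called 5 class differences and 1 sex difference, with rno-miR-103 at 0.46 and rno-miR-107 at 0.40 in females and 0.11 in males (adult minus young), and rno-miR-103 at -0.026 (female old minus adult). Normexp also called 5, with adult minus young at 0.41 and 0.49 for rno-miR-103 and 0.46 for male rno-miR-107. Its old minus adult values were -0.059 and -0.011 for rno-miR-33 and 0.092 and 0.052 for rno-miR-378, rno-miR-33* at 104 weeks was -0.038, and the ratio of rno-miR-107 to rno-miR-103 was -0.0022 and 0.034 at 2 and 5 weeks. The causes were not tested.

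Of the 33 pairs of arrays with the same replicate number, 17 correlated over 0.1 (range -0.69 to 0.74). Their median r was 0.11, against -0.023 for the 182 other pairs. These values do not settle whether the numbers pair the animals. With the replicate block, rno-miR-378 was 0.092 (female old minus adult), the ratio at 104 weeks was -0.0082, and 2 of the 13 ratio comparisons were called, against 6 without it. With scan as a block 2 were called, and the ratio was 0.021 (male adult minus young) and -0.0078 (sexes, 2 weeks). Without the later-design arrays, or without scan 5, 2 were called. These fits leave fewer permutations. The later-design arrays are the 16 of scan 5 and 8-week male 6, so leaving out either set is nearly the same setting. Leaving out scan 5 or 3 arrays at 104 weeks, and the F test of sex by age, also without those 3, were chosen after seeing the data. Without scan 5, 0 interactions were called (rno-miR-378 0.74). Without the 3 arrays, rno-miR-378 was 0.19 (female old minus adult), the old minus adult interactions were -0.011 for rno-miR-103 and -0.10 for rno-miR-33, and the ratio was 0.13 (female old minus adult) and -0.030 (sexes, 104 weeks). Leaving out single arrays, female old minus adult ranged from -0.0080 to 0.16 for rno-miR-33 and from -0.044 to 0.11 for rno-miR-378, the old minus adult interaction of rno-miR-103 from -0.0065 to 0.045, and the male adult minus young ratio from -0.057 to 0.019. Of 743 values under other settings, 620 kept their direction and call. The signal of rno-miR-33 lay nearest to the background, and its replicates spread most.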
